A study of Mus musculus with 30 samples.

Results

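Transcripts of 10 genes that cross-link and remodel the extracellular matrix were followed across 4 tissues of mice lacking Mtm1: the 5 lysyl oxidases (Lox, Loxl1, Loxl2, Loxl3 and Loxl4), 3 tissue inhibitors of metalloproteinases (Timp1, Timp2 and Timp3) and 2 matrix metalloproteinases (Mmp2 and Mmp14). They were chosen by gene symbol, and each symbol matched 1 of the 36103 genes counted. Polyadenylated RNA was sequenced in 30 libraries from Mtm1-/y male mice, which carry an Mtm1 knockout and model X-linked myotubular myopathy, and from their wild-type (WT) male littermates, on a pure 129Pas background at 5 weeks of age. Gastrocnemius and heart had 4 libraries per genotype, diaphragm had 4 WT and 3 Mtm1-/y libraries (replicates 1, 2 and 4), and liver had 3 WT and 4 Mtm1-/y libraries. The labels do not say which libraries came from the same mouse or batch, so p-values measure the spread between these libraries.

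Lysyl oxidases are secreted copper enzymes that oxidise lysines of collagen and elastin, the step that starts covalent cross-linking of the fibres. Matrix metalloproteinases cut collagens and other matrix proteins, Mmp14 sits in the cell membrane and activates the Mmp2 proenzyme, and TIMPs bind and block the active proteases. In skeletal muscle these genes are mostly expressed by fibroblasts and other cells of the interstitium, and the balance between them sets how much matrix is laid down and how stiff it becomes. Because whole tissue was sequenced, fewer cells of a type and less RNA per cell cannot be told apart.

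The members lie on 9 chromosomes of the mm10 build, and all are protein-coding. Lox spans 52516067 to 52529867 of chromosome 18, Loxl1 58287738 to 58313186 of chromosome 9, Loxl2 69609068 to 69695834 of chromosome 14, Loxl3 83034173 to 83052562 of chromosome 6, and Loxl4 42593982 to 42612813 of chromosome 19. Timp1 spans 20870166 to 20874735 of chromosome X, Timp2 118301069 to 118355740 of chromosome 11, and Timp3 86300372 to 86349506 of chromosome 10. Mmp2 spans 92827291 to 92853420 of chromosome 8 and Mmp14 54431612 to 54445364 of chromosome 14. Timp1 and Timp3 overlap the synapsin genes Syn1 and Syn3 on the opposite strand, and Timp4, followed as a comparison, overlaps Syn2 there. Also on the opposite strand, Lox overlaps AC161119.1, Loxl2 overlaps Gm27177 and Loxl3 overlaps Htra2. On the same strand, Loxl2 overlaps Mir6950 and Timp2 overlaps Cep295nl. The library kit marks strand, but the strand setting of the counting is not given in the sources used here, so reads shared with these partners are uncertain.

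Libraries held between 24873817 and 44289343 reads assigned to genes, and levels are given as counts scaled to library size, in the unit CPM. Mtm1, the targeted gene, did not overlap between genotypes in any tissue, the Mtm1-/y libraries being the lower ones, with folds of 0.239 in gastrocnemius, 0.209 in diaphragm, 0.167 in heart and 0.331 in liver. Skeletal fibre markers were high in gastrocnemius and diaphragm, cardiomyocyte markers in heart and hepatocyte markers in liver. The diaphragm libraries differed widely in 8 hepatocyte markers, whose summed level ran from 388 to 32050 CPM in WT and from 675 to 39980 CPM in Mtm1-/y. WT replicate 4 of heart stood high in 10 fibroblast markers, at 5717 CPM against 2339 to 4046 CPM in the other WT hearts.

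In gastrocnemius, 4 of the 10 genes rose in Mtm1-/y mice and none fell: Timp1, Lox, Loxl1 and Mmp14. A gene was called changed at an adjusted p under 0.05 in edgeR's quasi-likelihood test, with p-values adjusted by Benjamini-Hochberg over all genes tested in that comparison, and by this rule 14.1% of 15456 genes were higher. The median log2 fold change of the 10 genes was 0.53, against 0.02 over all genes tested, and 8 of the 10 were positive. DESeq2 called 6 of the 10 higher, the same 4 together with Loxl3 and Mmp2, against 12.9% of the genes it tested.

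**Figure D1:**
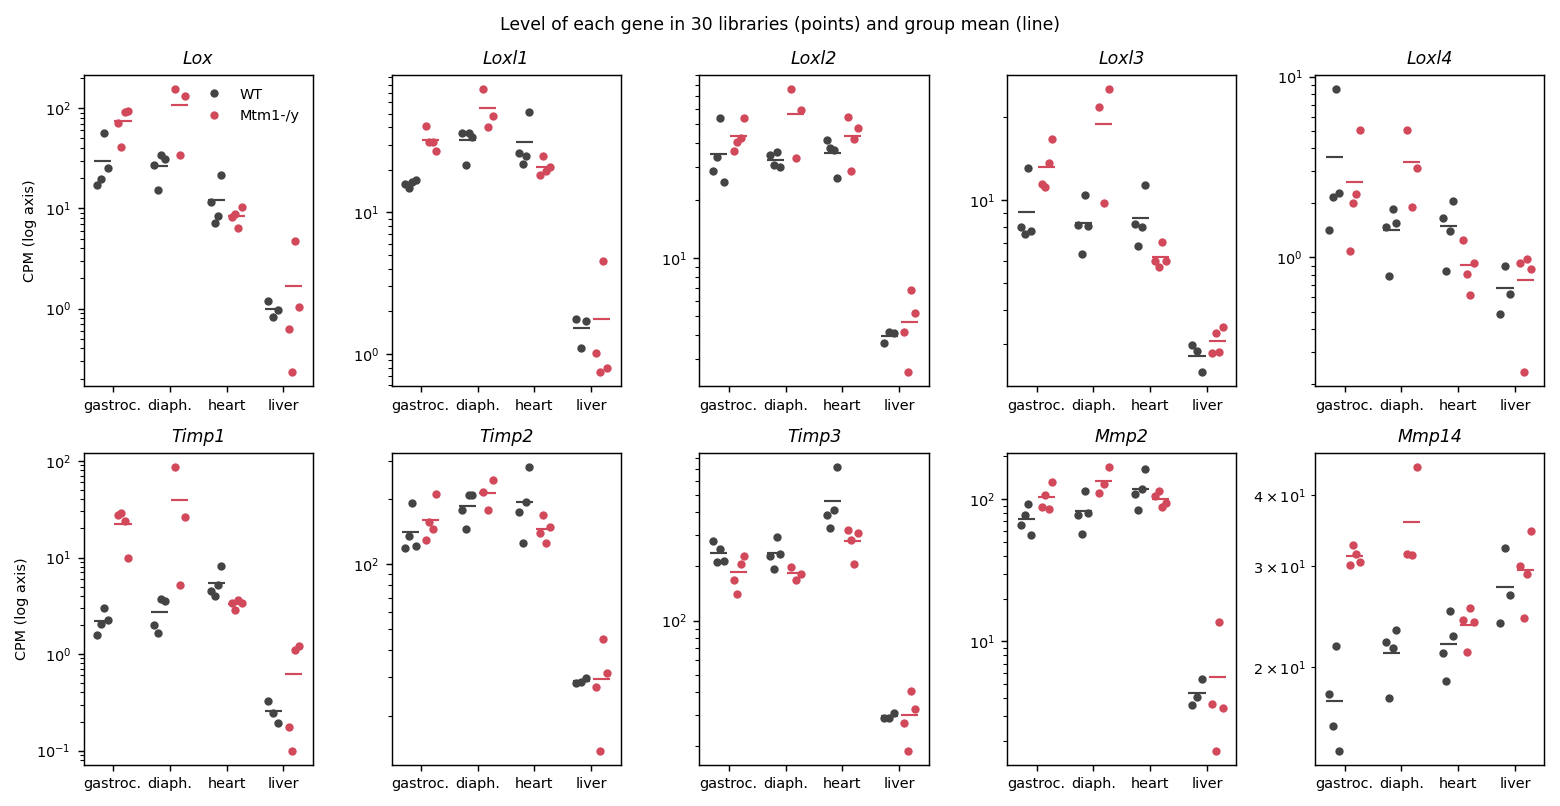
Level of each gene in CPM (log axis, scaled over all 30 libraries) in 4 tissues, with 1 point per library, WT dark, Mtm1-/y in red, and lines at group means (a level of 0, in 1 liver library for Timp1, is drawn at 0.1). The red points of Timp1 in gastrocnemius, 9.86 to 28.6 CPM, lie above all 4 dark points, 1.57 to 2.98 CPM, and 9 of the 10 genes are lowest in liver.

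Timp1, a soluble inhibitor that is induced in inflamed and injured tissue, had the largest change of the 10. It measured 1.57, 2.04, 2.98 and 2.24 CPM in the WT gastrocnemius libraries and 27.2, 28.6, 24.0 and 9.86 CPM in the Mtm1-/y libraries. All Mtm1-/y libraries lay above all WT libraries, and the lowest of them, replicate 4, was over 3 times the highest WT value. The log2 fold change was 3.35 (SE 0.34, 95% interval 2.59 to 4.11, adjusted p = 0.00023), a fold of 10.2. The call held without any single library, with log2 fold changes from 3.21 to 3.61. The sequence before the Timp1 start site is shown because Timp1 and Mmp14 are the called genes with a promoter among those searched. Timp4, the family member that fell in the same muscle, stands beside them.

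In the 3 sequences, the 250 bases before each start site are taken from RefSeq (GRCm38.p6) and capitals mark matches on either strand to 6 short motifs of known factors, spelled out after the sequences. Timp1 is at chrX:20869916-20870165 on the plus strand, Mmp14 at chr14:54431348-54431597 on the plus strand, and Timp4 at chr6:115252206-115252455 on the minus strand.
Timp1: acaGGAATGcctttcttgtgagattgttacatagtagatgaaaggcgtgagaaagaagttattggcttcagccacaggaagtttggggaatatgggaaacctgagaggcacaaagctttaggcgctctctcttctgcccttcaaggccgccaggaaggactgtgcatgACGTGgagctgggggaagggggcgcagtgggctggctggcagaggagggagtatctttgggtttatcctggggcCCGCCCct
Mmp14: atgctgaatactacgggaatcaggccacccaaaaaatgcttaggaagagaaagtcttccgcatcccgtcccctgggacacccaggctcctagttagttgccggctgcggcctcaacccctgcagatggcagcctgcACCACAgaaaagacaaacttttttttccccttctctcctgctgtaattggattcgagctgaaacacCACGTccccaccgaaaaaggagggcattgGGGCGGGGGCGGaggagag
Timp4: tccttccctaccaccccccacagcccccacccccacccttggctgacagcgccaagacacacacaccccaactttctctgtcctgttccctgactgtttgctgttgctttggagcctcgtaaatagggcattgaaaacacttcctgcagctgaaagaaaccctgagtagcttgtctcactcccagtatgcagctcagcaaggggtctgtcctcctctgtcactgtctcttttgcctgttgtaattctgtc

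Timp1 held a TEAD core 247 bases, a hypoxia element core 82 bases and a GC box 8 bases before the start. Mmp14 held a RUNX core 114 bases and a hypoxia element core 48 bases before the start, and 2 adjacent GC boxes at 19 and 13 bases. None of the 6 motifs was in the Timp4 window. Shares are given over the 32851 promoter windows of the same length that were searched, with chromosome 18 left out. The GC box, spelled GGGCGG, was found in 32.7% of all of these windows. The core of the hypoxia response element, spelled ACGTG, was found in 16.6% of the same windows. For the RUNX core, which is spelled TGTGGT, the share of all windows was 14%. For the TEAD core, which is spelled GGAATG, the share of all windows was 12.6%. The TATA box, searched with the letters TATAAA, was present in 12.4% of the windows. The AP-1 site, searched with the letters TGANTCA, was present in 6.75% of the windows. Windows were found for 5 of the 10 genes. Those of Loxl4, Timp2 and Timp3 held 3, 1 and 1 GC boxes and no other of these motifs. Loxl1, Loxl2, Loxl3 and Mmp2 had no window, and Lox lies on chromosome 18, which was left out of the search.

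Timp2 and Timp3 did not pass the test in gastrocnemius. Timp2, an inhibitor that also takes part in activating pro-Mmp2 at the cell surface, measured 118, 134, 192 and 121 CPM in WT and 129, 157, 145 and 210 CPM in Mtm1-/y libraries, which overlap (log2 fold change 0.19, 95% interval -0.22 to 0.61, adjusted p = 0.468). Timp3, the inhibitor that is bound to the matrix, measured 275, 211, 249 and 215 CPM in WT and 169, 140, 208 and 229 CPM in Mtm1-/y libraries. Its log2 fold change was -0.34 (95% interval -0.68 to 0.01, adjusted p = 0.127).

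Timp4, an inhibitor best known from heart and muscle that was followed as a comparison and is not among the 10, moved the other way. It measured 92.3, 56.2, 65.3 and 83.9 CPM in WT and 26.6, 34.8, 39.1 and 48.6 CPM in Mtm1-/y libraries. All Mtm1-/y libraries lay below all WT libraries, and the change was -0.98 on the log2 scale (SE 0.20, adjusted p = 0.00516).

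Among the lysyl oxidases, Loxl1, which is known for its part in elastic fibre assembly, gave the tightest result. WT gastrocnemius libraries measured 15.8, 14.99, 16.4 and 17.0 CPM and Mtm1-/y libraries 40.7, 31.5, 31.7 and 27.1 CPM. The groups did not overlap and the log2 fold change was 1.04 (SE 0.12, adjusted p = 0.000341), a fold of 2.06. Of all genes tested, 13.9% had all Mtm1-/y libraries above all WT libraries, as did 3 of the 10 members, Timp1, Loxl1 and Mmp14.

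Lox, the founding enzyme of the family, rose with a less certain margin. It measured 17.0, 19.6, 56.1 and 25.1 CPM in WT and 70.7, 41.5, 90.9 and 92.8 CPM in Mtm1-/y libraries, and WT replicate 3 lay above Mtm1-/y replicate 2. The log2 fold change was 1.34 (SE 0.39, adjusted p = 0.0268), a fold of 2.53. The adjusted p ran from 0.00241 to 0.08 when each library was left out in turn. The call was lost in 5 of these 8 fits, those without WT replicate 1, 2 or 4 or Mtm1-/y replicate 3 or 4. Lox also missed the threshold with edgeR on all 30 libraries (adjusted p = 0.0882).

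The other lysyl oxidases did not pass the test in gastrocnemius. Loxl3, which acts in muscle and cartilage development, measured 7.98, 7.56, 13.1 and 7.74 CPM in WT and 11.5, 11.1, 13.6 and 16.6 CPM in Mtm1-/y libraries (log2 fold change 0.55, SE 0.20, adjusted p = 0.0664). Only WT replicate 3 reached into the Mtm1-/y range. Loxl2, a cross-linker of basement membrane collagen, measured 28.5, 33.5, 53.4 and 24.8 CPM in WT and 36.1, 40.3, 42.2 and 53.9 CPM in Mtm1-/y libraries (log2 fold change 0.31, adjusted p = 0.328). Loxl4 was low throughout, at 1.42, 2.16, 8.56 and 2.27 CPM in WT and 1.09, 2.00, 2.25 and 5.09 CPM in Mtm1-/y libraries (log2 fold change -0.46, 95% interval -1.82 to 0.89, adjusted p = 0.599). WT replicate 3 and Mtm1-/y replicate 4, the highest Loxl4 values of each genotype, were also the highest in 6 tenocyte markers, whose sums were 930 and 1116 CPM against 167 to 369 CPM in the other WT and 364 to 489 CPM in the other Mtm1-/y libraries. Without WT replicate 3, 7 of the 10 genes were called, Loxl2, Loxl3 and Mmp2 being added.

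Both metalloproteinases were higher in mean. Mmp14 measured 17.9, 15.8, 21.8 and 14.3 CPM in WT and 30.2, 32.8, 31.5 and 30.5 CPM in Mtm1-/y libraries. The Mtm1-/y values lay close together and all above WT (log2 fold change 0.85, SE 0.12, adjusted p = 0.00103, fold 1.80). Mmp2, a gelatinase that cleaves basement membrane collagen, measured 65.5, 77.3, 92.1 and 56.1 CPM in WT and 88.8, 106, 85.1 and 131 CPM in Mtm1-/y libraries, which overlap, and missed the threshold (log2 fold change 0.51, SE 0.17, adjusted p = 0.0523). It passed without WT replicate 3 or Mtm1-/y replicate 3.

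Markers of other cells moved in the same muscle. Of 8 macrophage markers 7 were higher and none lower, with sums of 56.5 to 99.2 CPM in WT and 161 to 197 CPM in Mtm1-/y, and none was at 0. Of 10 fibroblast markers 6 were higher and none lower, with sums of 1571 to 2091 CPM and 1809 to 2702 CPM. Of 7 white adipocyte markers 6 were higher, with sums of 220 to 341 CPM and 348 to 521 CPM. Of 7 skeletal fibre markers 5 were lower and 2 higher, with sums of 184500 to 221800 CPM and 119400 to 128000 CPM. The sum of 6 satellite cell and myoblast markers was 43.9 to 65.6 CPM in WT and 70.6 to 193 CPM in Mtm1-/y, with 2 markers higher and 1 lower. The sum of 6 smooth muscle markers was 3153 to 4208 CPM in WT and 4283 to 6218 CPM in Mtm1-/y, above WT in every library. Of these markers 1 was higher and 1 lower, and their median log2 fold change was -0.17, opposite to the sum. This list includes Des, which striated muscle fibres also express, so its sum does not measure smooth muscle alone. The sum of 5 mesothelial markers was also above WT in every Mtm1-/y library (0.720 to 1.45 CPM and 4.16 to 12.6 CPM, 1 higher). These sums are low: only 2 of the 5 markers had enough counts to be tested, and 2 were at 0 in each WT library. The sum of 6 endothelial markers was below WT in every Mtm1-/y library (385 to 498 CPM and 288 to 382 CPM, 2 lower). Their part in the change of the matrix genes was not tested.

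**Figure D2:**
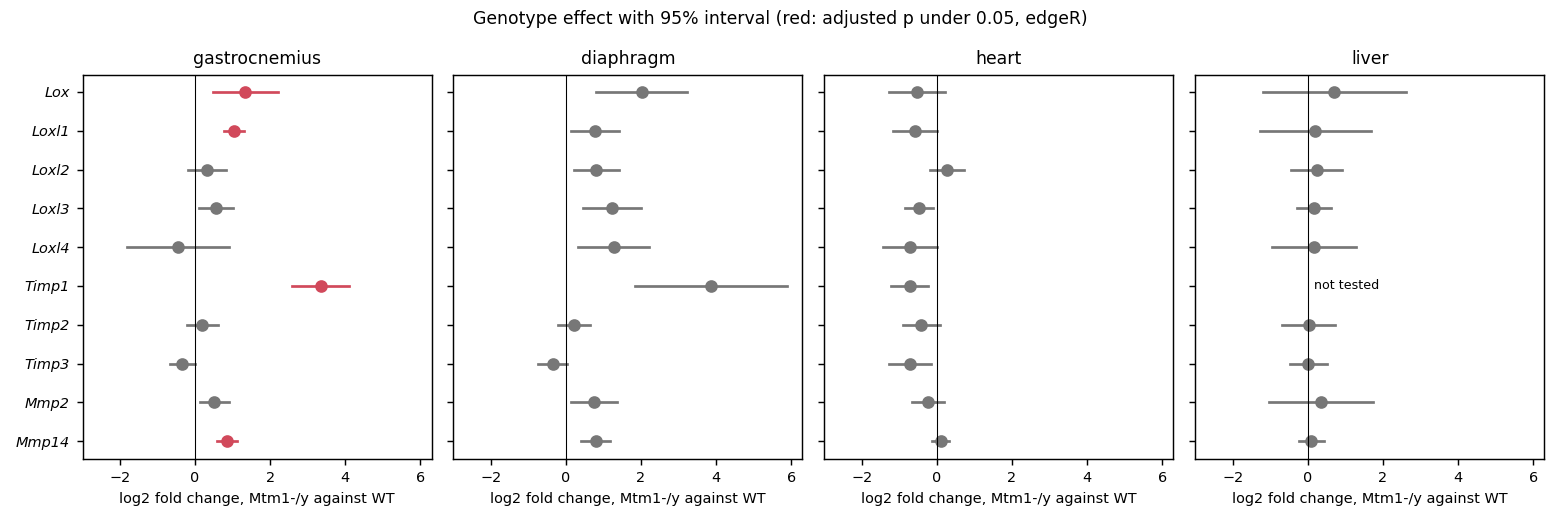
Log2 fold change of Mtm1-/y against WT (x axis) for each gene in each tissue, with its 95% interval from edgeR (red where the adjusted p was under 0.05). In gastrocnemius the 4 red points are Lox at 1.34, Loxl1 at 1.04, Timp1 at 3.35 and Mmp14 at 0.85, and no gene is red in diaphragm, heart or liver.

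In diaphragm 9 of the 10 estimates were above 0, yet none of the 10 genes passed the test. By edgeR 0 of 10 were called, against 0.0119% of 16796 genes, and 8 of 10 had an unadjusted p under 0.05, as did 1806 of all genes tested. The median log2 fold change of the 10 was 0.80, against -0.01 over all genes, and 9 were positive. DESeq2 called 4 higher (Lox, Loxl3, Timp1 and Mmp14), against 1.7% of the genes it tested. In 5 of the 10 (Lox, Loxl1, Loxl4, Timp1 and Mmp14) all 3 Mtm1-/y libraries lay above all 4 WT libraries, as did 4.41% of all genes tested.

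Timp1 measured 1.98, 1.64, 3.68 and 3.56 CPM in the WT diaphragms and 86.6, 5.18 and 26.3 CPM in Mtm1-/y replicates 1, 2 and 4. The Mtm1-/y libraries spread over a wide range, with replicate 2 near WT (log2 fold change 3.87, 95% interval 1.83 to 5.90, adjusted p = 0.276). Lox showed the same order, with 26.9, 15.2, 33.9 and 31.0 CPM in WT and 157, 34.2 and 132 CPM in Mtm1-/y libraries (log2 fold change 2.02, SE 0.51, adjusted p = 0.286).

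Loxl3 measured 8.17, 6.37, 10.4 and 8.08 CPM in WT and 21.7, 9.75 and 25.4 CPM in Mtm1-/y diaphragms, with replicate 2 inside the WT range. Loxl2 measured 34.4, 30.5, 35.7 and 29.9 CPM in WT and 76.3, 33.4 and 59.2 CPM in Mtm1-/y libraries, again with replicate 2 inside the WT range. For Loxl1 the values were 36.5, 21.8, 36.7 and 34.1 CPM in WT and 74.9, 39.9 and 48.1 CPM in Mtm1-/y libraries. The log2 fold changes were 1.22 for Loxl3, 0.80 for Loxl2 and 0.77 for Loxl1. Loxl4 stayed under 6 CPM, at 0.791 to 1.84 CPM in WT and 1.89 to 5.03 CPM in Mtm1-/y libraries.

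Mmp14 was steadier, at 22.1, 17.6, 21.6 and 23.2 CPM in WT and 31.5, 31.4 and 44.8 CPM in Mtm1-/y diaphragms (log2 fold change 0.79, SE 0.17, adjusted p = 0.268). Mmp2 overlapped, at 77.2, 56.9, 114 and 80.6 CPM in WT and 110, 127 and 168 CPM in Mtm1-/y libraries (log2 fold change 0.74). Timp2, at 146 to 209 CPM in WT and 177 to 245 CPM in Mtm1-/y diaphragms (log2 fold change 0.22), and Timp3, at 194 to 293 CPM and 168 to 199 CPM (log2 fold change -0.36), had intervals that included 0. Timp4 was below WT in every Mtm1-/y library, at 21.6, 32.4 and 21.6 CPM against 56.1 to 75.2 CPM (a log2 difference of -1.31, with adjusted p = 0.264). It was called by DESeq2 (adjusted p = 2.01e-06), by edgeR on all 30 libraries (adjusted p = 0.0242), by limma voom (adjusted p = 0.0471), with the hepatocyte covariate (adjusted p = 0.0419) and without Mtm1-/y replicate 2 (adjusted p = 0.0396).

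Mtm1-/y replicate 2 held the highest hepatocyte marker sum of the diaphragm libraries and was the closest to WT for Timp1 and Lox. Without it, edgeR called 162 genes (0.937% of those tested) and 4 of the 10: Lox with a log2 fold change of 2.44, Loxl2 with 1.06, Loxl3 with 1.52 and Timp1 with 4.38 (adjusted p between 0.0417 and 0.0434). Without Mtm1-/y replicate 1, the library with the highest Timp1 and Lox, none of the 10 was called, and the log2 fold changes fell to 2.56 for Timp1 and 1.66 for Lox. With the hepatocyte marker sum as a covariate none of the 10 was called, and the log2 fold change of Timp1 was 3.45. This sum was high in 3 of 4 WT libraries (21690 to 32050 CPM) and in 1 of 3 Mtm1-/y libraries. Other marker sums varied too. Those of 6 satellite cell and myoblast markers were 18.3 to 28.4 CPM in WT and 90.7, 29.0 and 67.2 CPM in Mtm1-/y replicates 1, 2 and 4, which did not overlap. Below WT in every Mtm1-/y library were the sums of 6 endothelial markers (458.5 to 554.7 CPM in WT and 421 to 451.7 CPM in Mtm1-/y). The same held for the sums of 6 hepatic stellate markers (466.4 to 682.7 CPM and 420.8 to 462.2 CPM). Those of 6 tenocyte markers (67.0 to 234 CPM in WT, and 651, 227 and 759 CPM), 6 smooth muscle markers (2025 to 2977 CPM in WT, and 4025, 2644 and 5069 CPM) and 10 fibroblast markers (1705 to 2903 CPM in WT, and 3088, 2311 and 3000 CPM) overlapped through replicate 2. The median log2 fold changes were 0.99 for the tenocyte, 0.02 for the smooth muscle and 0.53 for the fibroblast markers. The smooth muscle sum again includes Des. The part of these markers in the result was not tested.

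**Figure D3:**
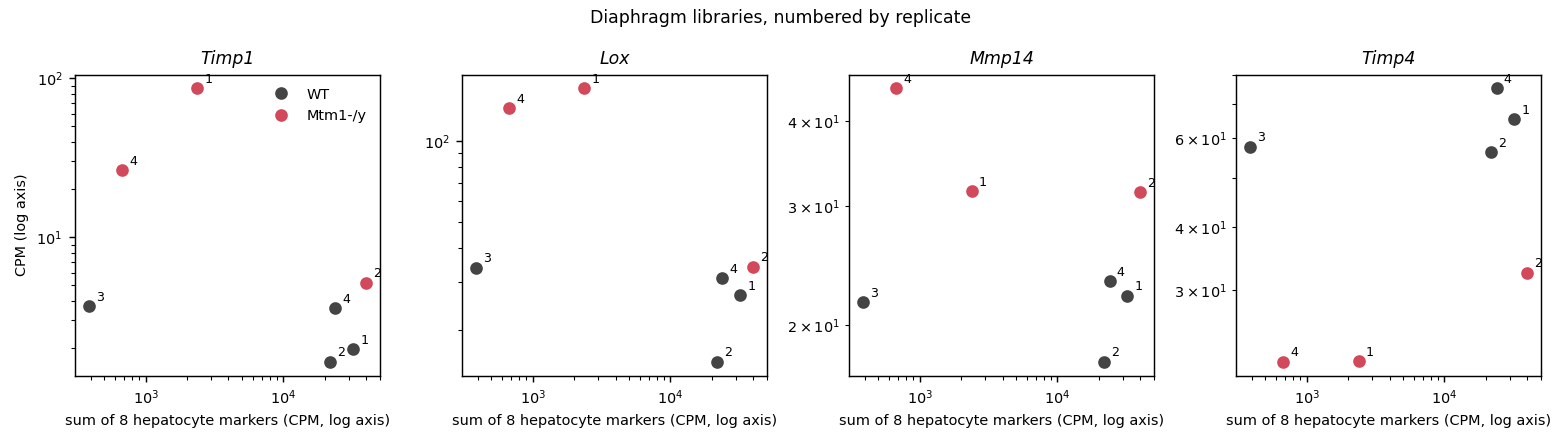
Level of 4 genes in the 7 diaphragm libraries (y axis, CPM, log axis) against the summed level of 8 hepatocyte markers (x axis, CPM, log axis), with WT dark, Mtm1-/y in red and the replicate number beside each point. Mtm1-/y replicate 2, at 39980 CPM of hepatocyte markers, has the lowest Timp1 (5.18 CPM) and Lox (34.2 CPM) of the 3 Mtm1-/y libraries and the highest Timp4 of them (32.4 CPM).

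In heart none of the 10 genes passed the test, and the estimates leaned to lower values. By edgeR 0 of 10 were called, against 0.00656% of 15238 genes, 3 had an unadjusted p under 0.05 (1353 of all genes tested), and DESeq2 called none, against 0.453% of the genes it tested. The median log2 fold change of the 10 was -0.51, against 0.00 over all genes, and 2 of 10 (Loxl2 and Mmp14) were positive. In Timp1 and Timp3 all Mtm1-/y libraries lay below all WT libraries, as did 2.03% of all genes tested.

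Timp1 in heart measured 4.48, 4.02, 5.18 and 8.08 CPM in WT and 3.36, 2.87, 3.63 and 3.35 CPM in Mtm1-/y libraries (log2 fold change -0.73, 95% interval -1.23 to -0.23, adjusted p = 0.546). Timp3 measured 386, 325, 411 and 714 CPM in WT and 320, 281, 206 and 307 CPM in Mtm1-/y libraries (log2 fold change -0.73, SE 0.25, adjusted p = 0.546). In both genes WT replicate 4 was the highest library, and without it the log2 fold changes were -0.47 for Timp1 and -0.43 for Timp3.

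Lox in heart measured 11.7, 7.12, 8.45 and 21.5 CPM in WT and 8.26, 8.73, 6.40 and 10.4 CPM in Mtm1-/y libraries, which overlap. Loxl1 measured 26.2, 22.0, 25.0 and 51.7 CPM in WT and 18.5, 25.1, 19.7 and 21 CPM in Mtm1-/y libraries. WT replicate 4 was again far above the rest in both, and it was the heart library with the highest fibroblast marker sum. Without it the log2 fold change moved from -0.54 to -0.11 for Lox and from -0.58 to -0.22 for Loxl1. That of Timp2 moved from -0.42 to -0.18 and that of Mmp2 from -0.24 to -0.05. These estimates shrank and stayed negative, as did those of Timp1 and Timp3 above. The sum of 8 hepatocyte markers, at 2.01 to 34.5 CPM in WT and 38.2 to 118 CPM in Mtm1-/y hearts, did not overlap. DESeq2 called 6 of 7 white adipocyte markers lower (edgeR none, median log2 fold change -2.68), though their sums overlapped (418 to 541 CPM and 407 to 511 CPM). WT replicate 4 was also the highest WT heart in 5 mesothelial markers (296 CPM against 56.6 to 122 CPM) and 6 cartilage markers (37.8 CPM against 2.91 to 12.2 CPM). The part of these markers was not tested. The remaining members overlapped between genotypes. Loxl3 ran from 6.82 to 11.4 CPM in WT and from 5.73 to 7.05 CPM in Mtm1-/y hearts (log2 fold change -0.48, unadjusted p = 0.017), and Loxl4 from 0.842 to 2.06 CPM and from 0.622 to 1.25 CPM (log2 fold change -0.72). Timp2 ran from 125 to 280 CPM and from 126 to 168 CPM (-0.42), and Mmp2 from 83.5 to 163 CPM and from 88.3 to 114 CPM (-0.24). Loxl2, at 26.2 to 41.2 CPM and 28.6 to 54.4 CPM (0.28), and Mmp14, at 18.9 to 25.1 CPM and 21.3 to 25.3 CPM (0.10), had estimates above 0. Timp4, at 38.5 to 73.8 CPM in WT and 41.1 to 83.4 CPM in Mtm1-/y hearts, had a log2 fold change of 0.08 (adjusted p = 0.904).

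In liver 9 of the 10 genes had enough counts to be tested by edgeR and none was called, against 0% of 14305 genes. None of the 9 had an unadjusted p under 0.05, against 606 of all genes tested. DESeq2 called none of the 10, against 0.135% of the genes it tested. Mtm1, the targeted gene, was not called by edgeR in liver either (adjusted p = 0.365), though DESeq2 called it (adjusted p = 1.48e-06). A gene uncalled by edgeR in liver is therefore not shown to be unchanged. Timp1 was too low for the test, with 4 to 10 reads per WT library (0.325, 0.246 and 0.194 CPM) and 0 to 38 reads in Mtm1-/y libraries (0.177, 0, 1.103 and 1.21 CPM). The count of 0 in Mtm1-/y replicate 2 allows a level of up to 0.139 CPM, the worth of 3 reads, and this limit covers counting error only.

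Mtm1-/y replicate 3 stood high for several of these genes in liver. Lox measured 1.202, 0.819 and 0.968 CPM in WT and 0.619, 0.231, 4.75 and 1.05 CPM in Mtm1-/y livers (log2 fold change 0.70, 95% interval -1.20 to 2.61). Mmp2 measured 3.57, 4.09 and 5.47 CPM in WT and 3.63, 1.71, 13.7 and 3.43 CPM in Mtm1-/y livers. The replicate with the highest value in both genes also had the highest fibroblast marker sum of the livers, 368 CPM against 147 to 306 CPM, and replicate 2, with the lowest, had the lowest sum. Mmp14 was steady, at 23.9, 32.3 and 26.7 CPM in WT and 30.1, 24.3, 29.2 and 34.6 CPM in Mtm1-/y livers (log2 fold change 0.09, 95% interval -0.25 to 0.43). The other 6 members tested had adjusted p between 0.969 and 0.999, with log2 fold changes from 0.01 for Timp3 to 0.24 for Loxl2. Timp4 was near the limit of detection in liver, with at most 6 reads in a library.

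To assess whether the genotype effect differed between tissues, the difference of the log2 fold changes was tested. The pairs with gastrocnemius share its libraries and are not independent. For heart minus gastrocnemius 5 of the 10 genes had a lower effect in heart, against 9.89% of 16627 genes. The differences were -4.07 for Timp1 (SE 0.43, adjusted p = 5.38e-05), -1.86 for Lox (adjusted p = 0.0294), -1.60 for Loxl1 (adjusted p = 0.00267), -1.01 for Loxl3 (adjusted p = 0.0193) and -0.73 for Mmp14 (adjusted p = 0.00612). Each of the 10 differences was negative, and the one of Loxl2 was -0.02 (95% interval -0.71 to 0.68). Timp4 differed the other way, by 1.09 (adjusted p = 0.0439). The call of Lox rested on single libraries, with adjusted p from 0.00485 to 0.0646 and the threshold missed in 7 of 16 fits that left out 1 library. These were the fits without WT replicates 1, 2 or 4 or Mtm1-/y replicate 4 of gastrocnemius, or without WT replicate 4 or Mtm1-/y replicates 1 or 3 of heart. With edgeR on all 30 libraries its adjusted p was 0.112. The call of Timp4 was lost in 10 of 16 such fits (adjusted p up to 0.097).

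**Figure D4:**
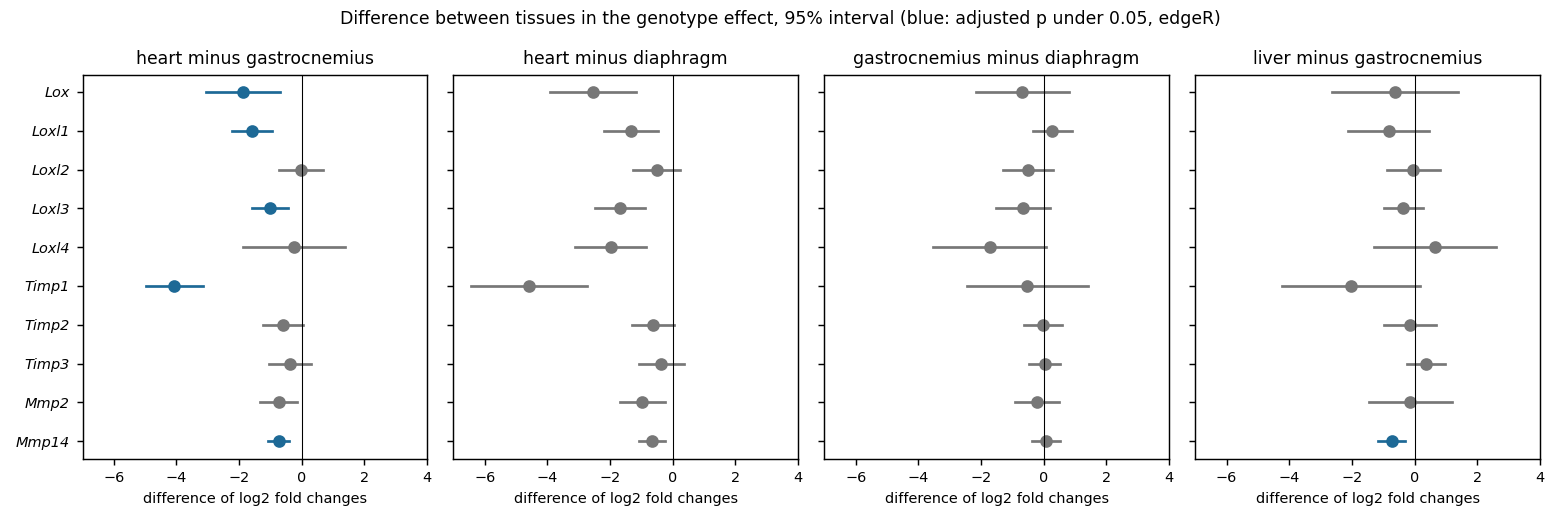
Difference between tissues in the log2 fold change of Mtm1-/y against WT (x axis), with its 95% interval from edgeR (blue where the adjusted p was under 0.05). Heart minus gastrocnemius has 5 blue points, from -0.73 for Mmp14 to -4.07 for Timp1, liver minus gastrocnemius has 1 (Mmp14), and the pairs with diaphragm have none.

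For heart minus diaphragm 0 of 10 genes were called, against 0.00573% of 17466 genes, and 7 of 10 had an unadjusted p under 0.05, as did 1852 of all genes. DESeq2 called 4 of the 10 and 221 genes in all. The difference of Timp1 was -4.58 (95% interval -6.44 to -2.72, adjusted p = 0.163). For gastrocnemius minus diaphragm 0 of 10 were called by either tool, against 0.28% of 17509 genes by edgeR and 379 genes by DESeq2. None of the 10 had an unadjusted p under 0.05 by edgeR, against 2249 of all genes tested. Intervals were wide, for example -2.46 to 1.43 for Timp1, and -0.38 to 0.53 for Mmp14. For liver minus gastrocnemius Mmp14 was called, with a difference of -0.73 (adjusted p = 0.0467), against 2.71% of genes with a lower effect in liver. That call was lost in 11 of 15 fits without 1 library (adjusted p up to 0.131).

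The genes differed between the tissues of WT mice, and liver stood apart. Against liver, 10 of 10 genes were called in gastrocnemius (79.5% of 17725 genes), 8 in diaphragm (76.1%) and 8 in heart (76.4%). The median log2 difference of the 10 was 3.12, 3.08 and 3.42, against 0.10, 0.09 and 0.12 over all genes. Between the muscles, gastrocnemius differed from diaphragm in 2 of 10 genes (54.4% of all genes), gastrocnemius from heart in 6 (61.3%) and diaphragm from heart in 3 (51.7%). Between the muscles these shares are at or below those of all genes. For diaphragm and heart against liver they are near those of all genes, and only the median differences stand apart.

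Mmp14 was the exception to the low levels in liver. WT levels were 27.6 ± 4.30 CPM in liver (SD, n = 3), 22.0 ± 2.59 CPM in heart (n = 4), 21.1 ± 2.42 CPM in diaphragm (n = 4) and 17.4 ± 3.27 CPM in gastrocnemius (n = 4). Of these, liver and gastrocnemius differed (log2 difference 0.59 higher in liver, adjusted p = 0.00319), and the neighbours in this order did not pass the test. Mmp2 kept that order among the muscles but was lowest in liver, with 118 ± 33.0 CPM in heart, 82.1 ± 23.6 CPM in diaphragm, 72.8 ± 15.5 CPM in gastrocnemius and 4.38 ± 0.980 CPM in liver. Heart and gastrocnemius differed (adjusted p = 0.0247), a call lost without WT gastrocnemius replicate 1 or 4 or WT heart replicate 4 (adjusted p up to 0.0788). The call was also lost with edgeR on all 30 libraries (adjusted p = 0.104). Neither tissue passed the test against diaphragm.

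Of the inhibitors, Timp3 was highest in heart, at 459 ± 174 CPM, against 238 ± 30.3 CPM in gastrocnemius, 237 ± 40.9 CPM in diaphragm and 29.3 ± 1.101 CPM in liver. Heart exceeded both skeletal muscles (adjusted p = 0.00173 and 0.00188), in every fit that left out 1 library, and the skeletal muscles did not differ (adjusted p = 0.906). Timp1 was also highest in WT heart, at 5.44 ± 1.82 CPM, against 2.72 ± 1.06 CPM in diaphragm, 2.21 ± 0.588 CPM in gastrocnemius and 0.255 ± 0.0661 CPM in liver. It exceeded diaphragm with an adjusted p of 0.0114, which became 0.0587 without WT heart replicate 4 and 0.148 with edgeR on all 30 libraries. The excess of Timp1 over gastrocnemius (adjusted p = 0.00229) also missed the threshold with edgeR on all 30 libraries (adjusted p = 0.0588). Timp2 ran from 193 ± 64.9 CPM in heart and 186 ± 30.3 CPM in diaphragm to 141 ± 34.6 CPM in gastrocnemius, with no call among the 3, and 28.8 ± 0.790 CPM in liver. Timp4 measured 59.1 to 74.5 CPM on average in the 3 muscles.

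Among the lysyl oxidases, Lox was higher in WT gastrocnemius (29.5 ± 18.1 CPM) and diaphragm (26.7 ± 8.20 CPM), which did not differ, than in heart (12.2 ± 6.50 CPM, adjusted p = 0.0124 and 0.0306), and lowest in liver (0.997 ± 0.193 CPM). The difference from gastrocnemius was lost without WT gastrocnemius replicate 3 (adjusted p = 0.0658). The difference from diaphragm was lost without WT diaphragm replicate 4 or any one of WT heart replicates 1, 2 and 3 (adjusted p up to 0.085). That difference was also lost with edgeR on all 30 libraries (adjusted p = 0.0779). Loxl1 was higher in diaphragm (32.3 ± 7.08 CPM) and heart (31.2 ± 13.8 CPM) than in gastrocnemius (16.1 ± 0.861 CPM, adjusted p = 0.00404 and 0.00473), with 1.52 ± 0.359 CPM in liver. Loxl2 (32.6 to 35.3 CPM) and Loxl3 (8.26 to 9.09 CPM) did not pass the test between any 2 muscles and were lower in liver, at 3.94 ± 0.288 and 2.73 ± 0.319 CPM. Loxl4 was the rarest, at 3.605 ± 3.33 CPM in gastrocnemius, 1.48 ± 0.509 CPM in heart, 1.41 ± 0.444 CPM in diaphragm and 0.673 ± 0.210 CPM in liver. Its excess in gastrocnemius over diaphragm and over heart was lost without WT gastrocnemius replicate 3 (adjusted p = 0.241 and 0.306), the library high in tenocyte markers. The first was also lost without WT diaphragm replicate 1, 2 or 4, and the other without WT heart replicate 1, 2 or 3.

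**Figure D5:**
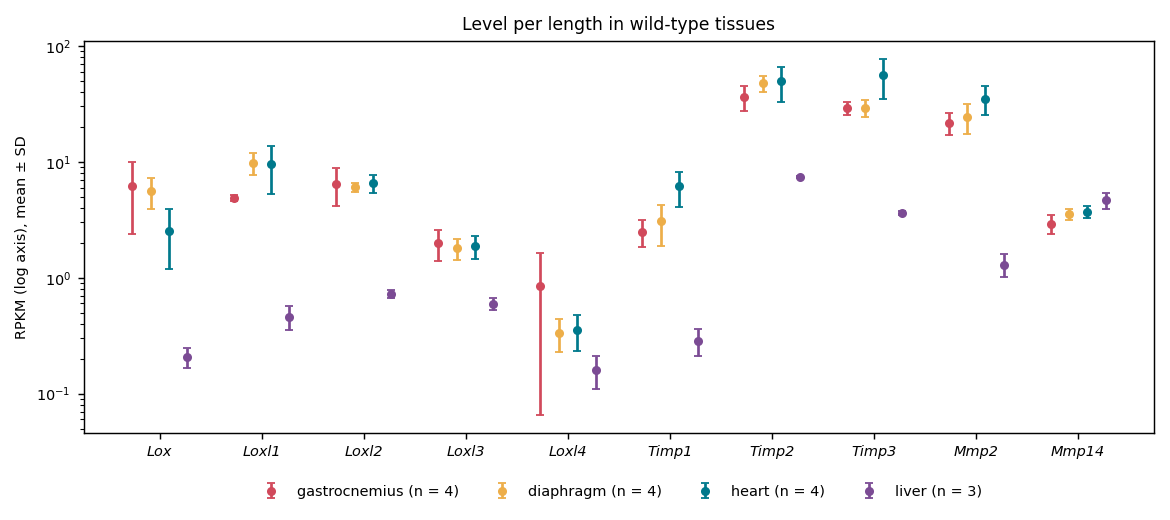
Level per transcript length (RPKM, log axis, union exon length) of each gene in WT tissues, as mean ± SD. Timp2, Timp3 and Mmp2 sit highest in the 3 muscles, from 21.6 to 56.4 RPKM, and liver lies lowest for each gene but Mmp14.

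Compared per length, in CPM divided by the exon length in kilobases (RPKM), Timp2, Timp3 and Mmp2 led the 10 genes in all 3 muscles of WT mice. In WT gastrocnemius the levels were 36.3 ± 8.87 RPKM for Timp2, 29.2 ± 3.72 for Timp3 and 21.6 ± 4.61 for Mmp2, followed by Loxl2 (6.48 ± 2.36), Lox (6.17 ± 3.79), Loxl1 (4.87 ± 0.261), Mmp14 (2.93 ± 0.548), Timp1 (2.49 ± 0.662), Loxl3 (1.98 ± 0.582) and Loxl4 (0.856 ± 0.790). Neighbours such as Loxl2 and Lox differ by less than their SD. In Mtm1-/y gastrocnemius Timp1 stood at rank 3, at 25.3 ± 9.68 RPKM, beside Mmp2 (30.5 ± 6.28) and Timp3 (22.9 ± 4.90), and Lox reached 15.5 ± 5.00 RPKM. In WT liver the order was Timp2 (7.40 ± 0.203 RPKM), Mmp14 (4.64 ± 0.722) and Timp3 (3.596 ± 0.135), with the lysyl oxidases between 0.160 and 0.728 RPKM. With the longest transcript in place of the union of exons, Timp3 led in WT gastrocnemius and WT diaphragm and Mmp14 in WT liver, and Timp1 in Mtm1-/y gastrocnemius moved to rank 4, behind Timp3.

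The other genes of the pathway were taken from lists chosen by function. Of 17 lysyl oxidase substrates and matrix partners, 7 were higher and none lower in Mtm1-/y gastrocnemius, with a median log2 fold change of 0.38. Over all 15456 genes tested there, 29% were called, 2173 higher (14.1%) and 2306 lower. They included Postn, a matricellular protein that helps place lysyl oxidases on collagen (39.9 ± 18.7 CPM in WT against 295 ± 93.8 CPM without Mtm1, fold 7.45), Lum, a collagen-binding proteoglycan (fold 1.98), and the fibrillar collagens Col5a2 (fold 1.78) and Col3a1 (fold 1.65). In diaphragm edgeR called none of the 17 and DESeq2 9 higher (1.7% of the genes it tested were higher), and neither tool called any in heart or liver.

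Of 17 genes that process or hydroxylate procollagen, 4 were higher and 2 lower in gastrocnemius, a share near the 29% of all genes called. P4ha3, a subunit of prolyl hydroxylase, rose from 0.187 ± 0.209 to 1.92 ± 0.900 CPM, while its relative P4ha2 fell from 47.4 ± 3.74 to 30.2 ± 1.71 CPM. Plod2, the lysyl hydroxylase that prepares telopeptide lysines for cross-links, rose 1.75-fold, and Pcolce, an enhancer of procollagen C-proteinase, 1.53-fold. DESeq2 also gave 4 higher and 2 lower, and edgeR called none of these genes in the other tissues, where DESeq2 called 2 higher in diaphragm.

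Of the 20 other MMPs and TIMPs, 12 had enough counts to be tested in gastrocnemius, and 3 were higher and 1 lower, which is also near the 29% of all genes called. Mmp19 rose from 3.61 ± 0.630 to 7.96 ± 1.42 CPM, Mmp11 from 3.99 ± 0.859 to 5.79 ± 0.884 CPM, and Mmp12, the macrophage elastase, from 0.0562 ± 0.0756 to 0.644 ± 0.322 CPM, while Timp4 fell. Of 18 ADAM and ADAMTS proteases edgeR called 5 higher and none lower, against 14.1% of all genes higher. The 5 included Adam8 (fold 2.15), Adam12 (fold 2.47), Adamts4, an aggrecanase (fold 2.71), and Adamts20 (fold 1.45). Of 13 genes of the plasmin system and MMP regulation, 5 were higher, against the same 14.1%, with Plaur, the urokinase receptor, at a fold of 2.14 and Plat, the tissue plasminogen activator, at 1.52. In that list 2 were lower, Bsg, an inducer of metalloproteinases (599 ± 81.7 to 414 ± 7.20 CPM), and Serpine2, a protease inhibitor (98.7 ± 5.09 to 73.6 ± 8.08 CPM). By edgeR none of these 3 lists had a called gene in diaphragm, heart or liver. In gastrocnemius DESeq2 gave 5 higher and 2 lower ADAM and ADAMTS proteases, and 4 higher and 1 lower of the other MMPs and TIMPs. It called 26.7% of the genes it tested there. In diaphragm DESeq2 called 3 ADAM and ADAMTS proteases higher, and of the other MMPs and TIMPs 1 higher and 1 lower. It called 2.37% of the genes it tested in diaphragm.

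The genes most like each member across the 30 libraries were found by Pearson's r of log2 CPM centred on the tissue mean. The points share genotype and tissue composition within each tissue, so r is a description. Timp1 was nearest to Ckap4 (r = 0.939), Vcan (0.914) and Pcdh7 (0.894), and Lox to Fstl1 (0.934), Col5a2 (0.927) and Svep1 (0.924). Loxl1 was nearest to Efs (0.907), Klf5 (0.899) and Mgp (0.896), Loxl2 to Mxra7 (0.850), Fbn1 (0.819) and Tnc (0.809), Loxl3 to Col12a1 (0.891), Piezo2 (0.869) and Ctsk (0.868), and Loxl4 to Col1a2 (0.871), Fmod (0.854) and Angptl7 (0.835). Mmp2 was nearest to Bicc1 (0.928), Col6a1 (0.916) and Col6a2 (0.903), and Mmp14 to Fat1 (0.886), Cx3cl1 (0.865) and Col8a1 (0.863). Timp2 was nearest to Aebp1 (0.906), Smo (0.886) and Abi3bp (0.885), and Timp3 to Mrvi1 (0.830), Procr (0.795) and Npy1r (0.791). Among the members themselves, r was highest between Lox and Timp1 (0.840), Lox and Loxl1 (0.838) and Timp2 and Mmp2 (0.837), and lowest between Timp3 and Mmp14 (-0.243).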

How the data were processed

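Polyadenylated RNA of whole tissue was made into stranded TruSeq libraries. The deposited values are raw counts of reads per Ensembl gene, made by the authors with HTSeq (0.6.1p1, union mode, unique and unambiguous reads) after cutadapt (1.10) and STAR (2.5.3a) on mm10. These versions and bcl2fastq 2.17.1.14 come from the submitters' processing notes. The strand setting of the counting is not given in the sources used here. Totals per library were 24873817 to 44289343 counts, 84 of 36103 genes had none, and no 2 libraries of a group agreed within sampling noise.

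Genotype effects were fitted within each tissue, and differences between tissues or WT tissues in joint fits, with edgeR 4.0.16 (R 4.3.3, limma 3.58.1): filterByExpr with a count minimum of 10, TMM scaling, the quasi-likelihood test and Benjamini-Hochberg adjustment over all genes tested at 0.05. DESeq2 1.42.0 was an alternative. Scripts were tested on simulated data. Printed CPM use TMM factors over all 30 libraries, and RPKM divide them by the union of exons, so folds of means differ slightly from fitted folds. Members and gene lists were chosen with earlier results of these data known. The text names every member, and from each list up to 4 genes called in gastrocnemius, those with the smallest p. The hepatocyte covariate was added after seeing the data. Same-numbered libraries had correlated deviations of -0.639 to 0.461 between genotypes and of -0.161 to 0.347 between WT tissues. No comparison had every pair over 0.1, so the numbers were not taken to pair samples, although they could still mark 1 mouse across tissues. All count columns were used.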

Additional observations from a re-analysis of the deposited data

Results flagged for a closer look

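Of 66 groups of 4 libraries tested for a library far from the rest by Dixon's ratio, 7 were marked, and chance alone marks about 1 group in 20. In WT gastrocnemius replicate 3, Loxl3 was 13.1 CPM against 7.56 to 7.98 CPM in the others and Loxl4 was 8.563 CPM against 1.42 to 2.275 CPM. In WT heart replicate 4, Loxl1 was 51.69 CPM against 22.03 to 26.22 CPM. In Mtm1-/y liver replicate 3, Loxl1 was 4.54 CPM against 0.740 to 1.02 CPM, Mmp2 was 13.71 CPM against 1.71 to 3.63 CPM, and Timp4 was 0.2546 CPM, from 6 reads, against 0 to 0.0318 CPM. In Mtm1-/y liver replicate 2, Loxl4 was 0.2314 CPM against 0.858 to 0.976 CPM.

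The genotype effect differed between heart and gastrocnemius by edgeR's test of the difference for 6 genes. Heart minus gastrocnemius was -4.067 for Timp1, -1.862 for Lox, -1.601 for Loxl1, -1.013 for Loxl3 and -0.7334 for Mmp14 on the log2 scale, and 1.086 for Timp4. Liver minus gastrocnemius was -0.7294 for Mmp14.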

How the results depend on the processing

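Of 2790 values of the 10 genes and Timp4 under other settings, 2672 kept their side of the threshold, 62 lost the call and 56 gained one. None reversed with a call in either fit. Of the 2672, 92 changed sign while uncalled in both fits. In gastrocnemius 4 of the 10 genes were called, and 3 to 7 without 1 library. In diaphragm 0 were called, against 4 by DESeq2, 3 by edgeR on all 30 libraries and 0 to 4 without 1 library. For heart minus diaphragm 0 were called, against 4 by DESeq2, 2 by edgeR on all 30 libraries and 0 to 4 without 1 library. For heart minus gastrocnemius 5 were called, and 4 to 6 without 1 library. For liver minus gastrocnemius 1 was called, against 0 with no filter, 0 with the replicate block, 0 with a log2 threshold of 1 added, and 0 to 1 without 1 library. Between WT tissues, gastrocnemius against diaphragm had 2 calls (1 with that threshold, 1 to 2 without 1 library), gastrocnemius against heart 6 (3, and 5 to 6), and diaphragm against heart 3 (1 by edgeR on all 30 libraries, and 2 to 4). Over all genes, diaphragm had 2 calls by edgeR against 438 by DESeq2 and 274 by edgeR on all 30 libraries, heart 1 against 85, liver 0 against 25, and gastrocnemius 4479 against 2925 on all 30 libraries. The cause was not tested.

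The labels give no pairing for the replicate numbers. Between WT tissues, number 1 had the highest correlations (0.347, 0.255 and 0.328 between the muscles), and a shared mouse was not tested. With the replicate block, gastrocnemius had 5 calls, Loxl3 being added (adjusted p = 0.0476), heart minus gastrocnemius kept 5, and Timp4 lost its call there (adjusted p = 0.0889). Under the block, WT gastrocnemius against heart had 5 calls without Loxl4 (adjusted p = 0.0564), and WT diaphragm against heart had 4 with Mmp2 (adjusted p = 0.0435). Low counts limited Timp1 and Timp4 in liver, at 38 reads or fewer per library.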
